A study of Mus musculus with 3 samples.

Results

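The aldehyde dehydrogenases described here are 10 genes, *Aldh1a1*, *Aldh1a2*, *Aldh1a3*, *Aldh1a7*, *Aldh1b1*, *Aldh2*, *Aldh3a1*, *Aldh3a2*, *Aldh3b1* and *Aldh7a1*, measured in 3 mouse colon tumor cell lines. They were chosen by gene name and were found through the RefSeq transcript to which the array design assigns each probe. They are 10 of the 22911 genes that could be named in this way, and 14 of the 56599 probes on the array measure them. A single probe measured 7 of the genes, while *Aldh2* and *Aldh7a1* had 2 probes each and *Aldh3a2* had 3.

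Colon26 is a murine colon adenocarcinoma line of BALB/c origin, LuM1 is its high-metastatic subline and NM11 is its low-metastatic subline. All 3 lines carry the strain label BALB/c and were grown without any agent under comparison, in RPMI1640 with serum and antibiotics, for 3 days. RNA (0.1 µg) of each line went on 1 single-colour array, so each line is a single sample and no difference below has a replicate check. The design asks how the transcripts of LuM1 cells differ from those of NM11 cells and of the parental Colon26 cells.

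Aldehyde dehydrogenases oxidize aldehydes to the matching carboxylic acids, with NAD+ or NADP+ as the electron acceptor. Several members of the 1A group turn retinal into retinoic acid, the ligand of the retinoic acid receptors, while mitochondrial members clear acetaldehyde and members of the 3 group clear fatty and aromatic aldehydes that arise from lipid peroxidation. Their combined activity in living cells, read with a fluorescent substrate, is a widely used marker of stem-like cells in normal tissue and in tumors, the colon included.

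Of the 10 genes, 5 gave a signal well above background on all 3 arrays (*Aldh2*, *Aldh3a1*, *Aldh3a2*, *Aldh3b1* and *Aldh7a1*). *Aldh1a1* did so on the NM11 array alone, and 4 genes (*Aldh1a2*, *Aldh1a3*, *Aldh1a7* and *Aldh1b1*) on none. *Aldh3b1* differed most among the lines, at 12.8-fold higher in LuM1 cells and 6.11-fold higher in NM11 cells than in Colon26 cells. *Aldh7a1* was 3.08-fold higher in LuM1 cells than in Colon26 cells, and *Aldh3a1* was 2.19-fold lower in NM11 cells than in Colon26 cells. *Aldh2* and *Aldh3a2* stayed within 2-fold in every pair of lines.

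Signals are given in arbitrary units, with the 75th percentile of every array brought to 1 common value, and each is followed by the scanner software's own error, which covers neither culture nor labelling. That error was 10.0% of a bright signal. A probe is called measured on an array where the software marks it well above background, and the lowest signals so marked on the Colon26, LuM1 and NM11 arrays were 26.4, 20.1 and 19.6. Between 49.9% and 53.8% of the probes on an array were so marked, none was saturated, and no probe of the 10 genes lay in a cluster of spots bright on a single array. A difference of 2-fold or more is counted as higher or lower. The error of a log2 ratio is that of both signals combined, and the 95% intervals follow from it under a normal distribution.

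**Figure D1:**
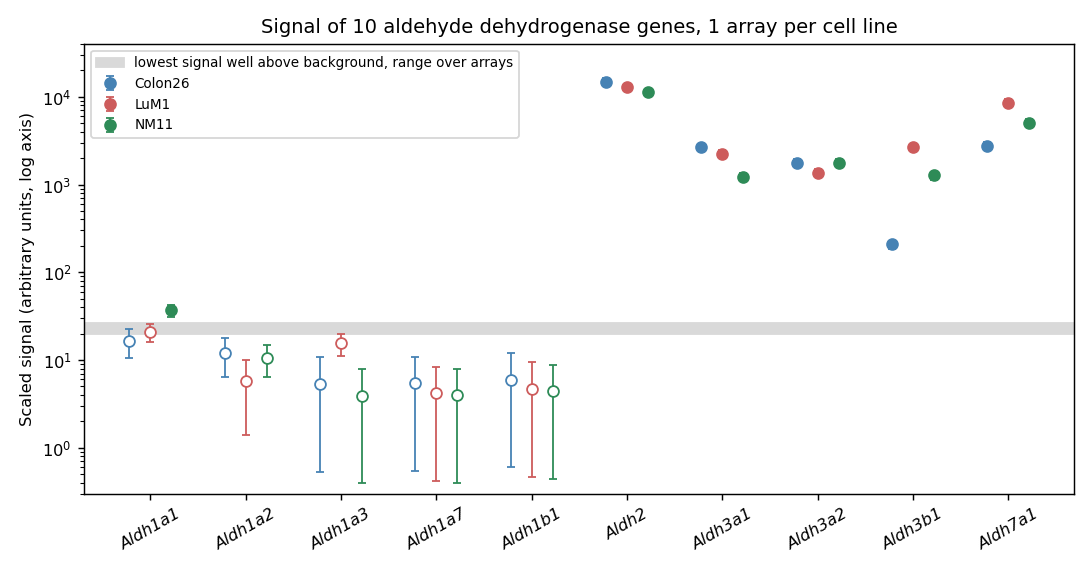
Scaled signal (arbitrary units, log axis) of the brightest probe of each of the 10 genes on the Colon26, LuM1 and NM11 arrays, with 1 point per array and bars for the scanner error (lower ends that would reach 0 are cut short). Filled points were well above background and open points were not, and the grey band spans the lowest signals well above background on the 3 arrays. *Aldh3b1* and *Aldh7a1* lie highest in LuM1 cells, and the open points of *Aldh1a2*, *Aldh1a3*, *Aldh1a7* and *Aldh1b1* lie under the band.

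*Aldh3b1* is the gene whose signal varied most, and *Aldh3a2* is the one that varied least among the 5 genes measured on all arrays, by the brightest probe. Its log2 range was 0.37 against 0.38 for *Aldh2*, a gap far under the scanner error. With the mean over probes *Aldh2* varied less, with widest log2 ratios of -0.32 for *Aldh2* and -0.49 for *Aldh3a2*. The 250 bases before the listed start of each are shown for this reason, from RefSeq on the GRCm38.p6 assembly. The *Aldh3b1* stretch lies at chr19:3929779-3930028 on the minus strand and the *Aldh3a2* stretch at chr11:61267187-61267436 on the minus strand. Both are written 5′ to 3′, and capitals mark every match to a searched motif.
Aldh3b1: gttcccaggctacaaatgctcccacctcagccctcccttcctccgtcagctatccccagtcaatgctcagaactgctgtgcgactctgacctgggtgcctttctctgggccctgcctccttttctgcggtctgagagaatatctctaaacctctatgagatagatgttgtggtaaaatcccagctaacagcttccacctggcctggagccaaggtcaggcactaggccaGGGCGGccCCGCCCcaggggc
Aldh3a2: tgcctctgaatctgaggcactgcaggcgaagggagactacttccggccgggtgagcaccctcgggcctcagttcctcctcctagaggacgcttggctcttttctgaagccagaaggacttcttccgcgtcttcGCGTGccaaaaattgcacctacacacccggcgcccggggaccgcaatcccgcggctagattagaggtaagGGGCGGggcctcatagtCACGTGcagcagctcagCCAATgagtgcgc

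The motifs searched on both strands were the TATA box (TATAAA), the GC box (GGGCGG), the CCAAT box (CCAAT), the E-box (CACGTG), the core to which the aryl hydrocarbon receptor binds (GCGTG) and the core of the antioxidant response element (TGACNNNGC). The *Aldh3b1* stretch held 2 GC boxes, which start 21 bases before the listed start in the direction of the gene and 13 bases before it in the opposite direction, and none of the other motifs. The *Aldh3a2* stretch held a GC box 47 bases, an E-box 30 bases, a CCAAT box 13 bases and a GCGTG core 117 bases before the start. No 2 of these matches overlap. Of the 32851 stretches of this length before listed starts of mouse genes, 32.7% held a GC box, 33.8% a CCAAT box, 28.2% a GCGTG core, 12.4% a TATA box, 10.2% an antioxidant core and 6.02% an E-box.

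The *Aldh3a2* stretch held 18 CpG dinucleotides and the *Aldh3b1* stretch 5, against a median of 6 over all stretches, and their GC contents were 61.2% and 58%, against a median of 52.4%. A match to letters is not a binding site, and other transcripts of both genes can start elsewhere. Such stretches were found for 6 of the 10 genes.

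The 1A group holds the enzymes that oxidize retinal. *Aldh1a1* (cytosolic, the member most often tied to the stem-cell activity assay) had a signal of 16.6 ± 6.13 in Colon26 cells, 21.1 ± 4.93 in LuM1 cells and 36.7 ± 5.57 in NM11 cells. It was well above background in NM11 cells alone, where it was at least 1.39-fold higher than in Colon26 cells, a lower bound. Its NM11 signal was 1.74-fold its LuM1 signal, with an error of 0.40 on the log2 scale under the looser detection rule. This is a ratio of 2 signals and no lower bound. The LuM1 signal was not marked well above background but exceeded the lowest signal so marked on that array. Neither value shows that the gene lay within 2-fold, and the processing moved them both ways. NM11 over Colon26 cells was 2.21-fold under the looser detection rule and 1.21-fold under normexp background correction. It had no ratio under scaling to the gene *Hprt*. The NM11 signal was 2.05-fold the LuM1 signal under quantile normalization and 1.16-fold under scaling to *Hprt*.

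*Aldh1a2*, which makes retinoic acid in the embryonic mesoderm, had signals of 12.1 ± 5.74, 5.74 ± 4.33 and 10.6 ± 4.19 on the Colon26, LuM1 and NM11 arrays. *Aldh1a3*, which has the same substrate and acts in the developing eye and nose, had signals of 5.33 ± 5.35, 15.6 ± 4.37 and 3.92 ± 3.93 in the same order. The software marked *Aldh1a2* as significantly above background on all 3 arrays and *Aldh1a3* on the LuM1 array alone, under a looser criterion than the one used here. For lack of a signal well above background, no ratio was formed for either gene.

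*Aldh1a7*, a rodent copy of *Aldh1a1* that lies next to it on chromosome 19 and is not known for oxidizing retinal, had signals of 5.46 ± 5.47, 4.19 ± 4.20 and 3.986 ± 3.997. Each is as large as its own error, and the gene was not significantly above background on any array. The 80 bases before a listed start of each of these neighbours are shown, from RefSeq (GRCm38.p6). For *Aldh1a1* the later listed start was used, and the stretch before the earlier one (chr19:20492333-20492582) was not compared. The bases lie at chr19:20601888-20601967 on the plus strand for *Aldh1a1* and chr19:20727557-20727636 on the minus strand for *Aldh1a7*. Capitals mark the bases that differ.
Aldh1a1: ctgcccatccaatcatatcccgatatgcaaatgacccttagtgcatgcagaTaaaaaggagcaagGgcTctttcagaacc
Aldh1a7: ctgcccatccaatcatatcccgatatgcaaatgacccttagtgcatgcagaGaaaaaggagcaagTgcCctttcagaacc

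These stretches share 77 of 80 bases. The probes' own sequences were not used here, so whether the probe of either gene also binds the other's transcript was not tested. For both genes the signals are near or under the detection limit, with the NM11 signal of *Aldh1a1* as the exception.

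Of the mitochondrial members, *Aldh2* is the main enzyme for acetaldehyde and *Aldh1b1* is its close relative, known from the crypts of the intestine. *Aldh2* had signals of 14726 ± 1473 in Colon26 cells, 12816 ± 1282 in LuM1 cells and 11303 ± 1130 in NM11 cells with the brighter probe. Its second probe gave 6048 ± 605, 5273 ± 527 and 5085 ± 509 in the same order, so both probes placed Colon26 cells highest and NM11 cells lowest.

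The log2 ratio of *Aldh2* was -0.20 (95% interval -0.60 to 0.20) for LuM1 over Colon26 cells, 0.18 (-0.22 to 0.58) for LuM1 over NM11 cells and -0.38 (-0.78 to 0.02) for NM11 over Colon26 cells. Each interval includes 0 and lies within 2-fold, the last one reaching just past 0. This rests on the scaling: with arrays scaled to the housekeeping gene *Hprt* the log2 ratio was 0.77 for LuM1 over NM11 cells and -0.87 for NM11 over Colon26 cells, each with an error of 0.20. *Aldh1b1* had signals of 5.99 ± 6.01, 4.70 ± 4.71 and 4.41 ± 4.43 in Colon26, LuM1 and NM11 cells and was not significantly above background on any array.

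The members of the 3 group oxidize medium-chain, fatty and aromatic aldehydes. *Aldh3b1* acts on aldehydes from lipid peroxidation and is anchored to membranes by lipid. Its signal was 208 ± 21.6 in Colon26 cells, 2660 ± 266 in LuM1 cells and 1268 ± 127 in NM11 cells. The lines thus stood in the order LuM1, NM11, Colon26, and all 3 gaps were larger than the scanner error.

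The mRNA level of *Aldh3b1* in LuM1 cells was 12.8-fold that in Colon26 cells (95% interval 9.66 to 17.0) and 2.10-fold that in NM11 cells (1.59 to 2.77). In NM11 cells it was 6.11-fold that in Colon26 cells (4.60 to 8.11). Both sublines were therefore higher than the parental line by more than they differed from each other, and both of those ratios rest on the same Colon26 array. The difference of LuM1 from NM11 cells lay just over the 2-fold line, with an interval that reaches under it. *Aldh3b1* was measured by a single probe, so no second probe of the gene bears on this pattern.

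*Aldh3a1* is abundant in the cornea and stomach, and is a target of the aryl hydrocarbon receptor. Its signal was 2666 ± 267 in Colon26 cells, 2244 ± 224 in LuM1 cells and 1220 ± 122 in NM11 cells. NM11 cells were the low line. The log2 ratio was -1.13 for NM11 over Colon26 cells (95% interval -1.53 to -0.73) and 0.88 for LuM1 over NM11 cells (0.48 to 1.28), which is 1.84-fold and under the 2-fold line. Between LuM1 and Colon26 cells it was -0.25 (-0.65 to 0.15), an interval that includes 0.

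*Aldh3a2* is the fatty aldehyde dehydrogenase of the endoplasmic reticulum and lies beside *Aldh3a1* on chromosome 11. Its brightest probe gave 1770 ± 177 in Colon26 cells, 1370 ± 137 in LuM1 cells and 1754 ± 175 in NM11 cells. Its second probe gave 582 ± 58.6, 382 ± 38.5 and 535 ± 53.6, and the third probe was not well above background on any array. Both measured probes placed LuM1 cells lowest.

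The log2 ratio of *Aldh3a2* for LuM1 over Colon26 cells was -0.37 (95% interval -0.77 to 0.03) with the brightest probe and -0.61 (-1.01 to -0.20) with the second one. For LuM1 over NM11 cells it was -0.36 (-0.76 to 0.04) and -0.48 (-0.89 to -0.08). The interval of the second probe thus left out 0 in both comparisons and that of the brightest probe in neither, while the probes themselves differed by less than their combined error. NM11 over Colon26 cells gave -0.01 (-0.41 to 0.39) with the brightest probe.

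*Aldh7a1* encodes antiquitin, which oxidizes an aldehyde of lysine breakdown and makes the osmolyte betaine. Its brighter probe gave 2760 ± 276 in Colon26 cells, 8513 ± 851 in LuM1 cells and 5030 ± 503 in NM11 cells. Its second probe gave 66.0 ± 8.58, 210 ± 21.4 and 129 ± 13.5 in the same order. Both probes placed the lines in the order LuM1, NM11, Colon26, the order also seen for *Aldh3b1*.

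The level of *Aldh7a1* in LuM1 cells was 3.08-fold that in Colon26 cells with the brighter probe (95% interval 2.34 to 4.07) and 3.18-fold with the second one (2.30 to 4.39). For LuM1 over NM11 cells the values were 1.69-fold (1.28 to 2.23) and 1.63-fold (1.22 to 2.17), and for NM11 over Colon26 cells 1.82-fold (1.38 to 2.41) and 1.95-fold (1.40 to 2.70). The intervals of both probes left out a ratio of 1 in every comparison, and those of LuM1 over Colon26 cells lay above 2-fold as a whole. For NM11 over Colon26 cells this rests on the scaling. With arrays scaled to *Hprt* the brighter probe gave 1.30-fold, a log2 ratio of 0.38 with an error of 0.20.

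**Figure D2:**
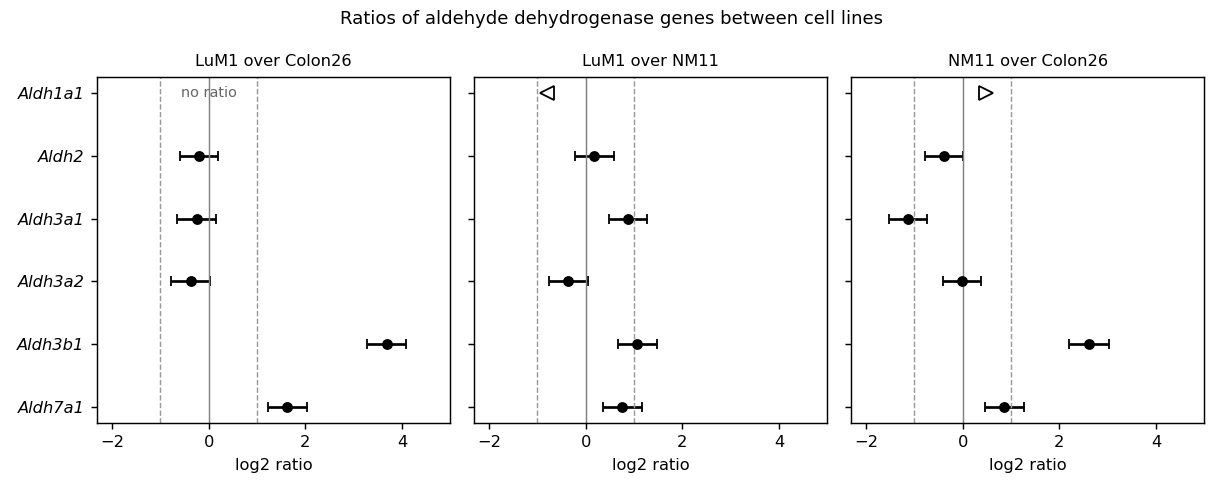
Log2 ratio of *Aldh1a1*, *Aldh2*, *Aldh3a1*, *Aldh3a2*, *Aldh3b1* and *Aldh7a1* for the 3 pairs of lines (dashed lines mark 2-fold). Points are measured ratios, bars the 95% interval from the scanner error and open triangles bounds. The *Aldh1a1* triangle for LuM1 over NM11 cells is instead a ratio to a LuM1 signal not well above background. The 4 genes without a ratio in any pair are not drawn. *Aldh3b1* lies to the right of the 2-fold line in all 3 panels, and *Aldh3a1* lies to the left of it for NM11 over Colon26 cells.

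Counted over the family, LuM1 cells exceeded Colon26 cells at least 2-fold in 2 of the 10 genes (*Aldh3b1* and *Aldh7a1*), 3 stayed within 2-fold, none was at least 2-fold lower and 5 had no ratio. Over all genes well above background on at least 1 of the 2 arrays, 12.9% were at least 2-fold higher and 11.7% at least 2-fold lower. Against NM11 cells, 1 of the 10 genes (*Aldh3b1*) was at least 2-fold higher in LuM1 cells, 4 were within 2-fold and 4 had no ratio. The remaining 1 (*Aldh1a1*), measured in NM11 cells alone, had a value under 2-fold. Over all genes 11.1% were higher and 8.5% lower. For NM11 over Colon26 cells, 1 gene was higher (*Aldh3b1*), 1 was lower (*Aldh3a1*), 3 were within 2-fold, 1 (*Aldh1a1*) had a bound under 2-fold and 4 had no ratio, beside 8.17% higher and 7.74% lower over all genes. With 5 genes measured on all arrays, these counts are a description and no result about the family.

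The median log2 ratio of the 5 measured genes was -0.20 for LuM1 over Colon26 cells, 0.76 for LuM1 over NM11 cells and -0.01 for NM11 over Colon26 cells. Over all measured genes the medians were -0.13, -0.11 and -0.02. Single genes stood at different places in these distributions. Of the 12397 genes measured in both LuM1 and Colon26 cells, 122 (0.984%) had a ratio at least as high as *Aldh3b1*, and 583 (4.70%) one at least as high as *Aldh7a1*. Of the 12851 genes measured in LuM1 and NM11 cells, 989 (7.70%) reached the ratio of *Aldh3b1*. For NM11 over Colon26 cells, 151 of 12471 genes (1.21%) were as high as *Aldh3b1*, and 539 (4.32%) were as low as *Aldh3a1*.

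**Figure D3:**
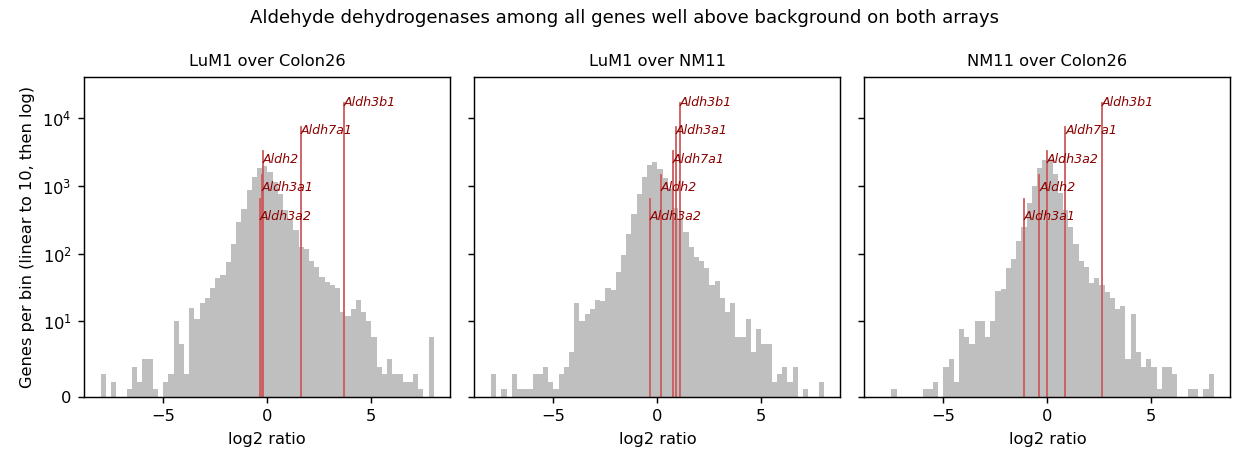
Number of genes per bin of log2 ratio (vertical axis linear up to 10 genes and logarithmic above) for all genes well above background on both arrays of each pair, with values beyond the axis placed in the end bins. Red lines mark the 5 measured aldehyde dehydrogenases, and their heights carry no value. *Aldh3b1* lies in the upper tail for LuM1 over Colon26 and NM11 over Colon26 cells, while *Aldh2* and *Aldh3a2* lie near the middle in all 3 panels.

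The genes whose signals over the 3 lines were most like those of *Aldh3b1* were sought among the 12249 genes measured on all arrays, by the root mean square difference of log2 signals centred on each gene's mean. The nearest were *C1ra* (0.053), a serine protease of the complement cascade, *Glrx* (0.066), a glutaredoxin that reduces protein disulfides, and *Egfl7* (0.071), a secreted protein known from endothelial cells. *Prickle3* and *Syn1* followed at 0.18 each. The signal of *C1ra* was 287 in Colon26 cells, 4026 in LuM1 cells and 1825 in NM11 cells, and that of *Glrx* 691, 9033 and 3875. The likeness rests on 3 arrays, which all these genes share.

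The array also held 11 further genes of the aldehyde dehydrogenase superfamily, among them the folate enzymes *Aldh1l1* and *Aldh1l2* and the proline enzymes *Aldh4a1* and *Aldh18a1*. In LuM1 against Colon26 cells, 1 was at least 2-fold higher and 3 were at least 2-fold lower among 9 with a ratio or bound. In LuM1 against NM11 cells, 0 were higher and 1 was lower among 10, and in NM11 against Colon26 cells 0 of 10 were higher or lower. The median over those measured was -0.04, -0.40 and -0.19 in the 3 comparisons. These counts moved with the scaling: with the authors' values 2 were higher and 1 lower in LuM1 against Colon26 cells, and 2 were higher and 1 lower against NM11 cells, as under *Hprt*. For this list and those below, the shares over all genes were 12.9% higher and 11.7% lower for LuM1 over Colon26 cells. They were 11.1% and 8.5% for LuM1 over NM11 cells, and 8.17% and 7.74% for NM11 over Colon26 cells.

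*Aldh1l2*, which oxidizes formyl-tetrahydrofolate in mitochondria, was the widest of these. Its signal was 4468 ± 447 in Colon26 cells, 1100 ± 110 in LuM1 cells and 3644 ± 364 in NM11 cells, which made LuM1 the low line. It was 4.06-fold lower in LuM1 cells than in Colon26 cells and 3.31-fold lower than in NM11 cells, and a second probe gave 3.95-fold and 3.24-fold. The genes *Aldh5a1*, *Aldh18a1* and *Aldh1l1* were picked out after their values were seen, because the counts above rest on them. *Aldh5a1*, the succinic semialdehyde dehydrogenase, was 2.78-fold higher in LuM1 cells relative to Colon26 cells. *Aldh18a1*, which makes the precursor of proline, was 2.21-fold lower and *Aldh1l1* at least 2.14-fold lower. With the authors' values both fell under the 2-fold line, at 1.62-fold and at least 1.57-fold lower.

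Of 18 genes that supply retinal to these enzymes (binding proteins, retinol dehydrogenases and reductases), 13 were measured on all arrays and 5 on none. In each of the 3 comparisons 1 was at least 2-fold higher, 1 was lower and 11 were within 2-fold. These counts moved with the scaling. Under *Hprt* 3 were higher and 1 lower for LuM1 over NM11 cells, and 0 higher and 2 lower for NM11 over Colon26 cells. The median log2 ratios were -0.20 for LuM1 over Colon26, -0.34 for LuM1 over NM11 and -0.17 for NM11 over Colon26 cells.

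*Adh7*, a retinol-oxidizing alcohol dehydrogenase of epithelia, had signals of 547 ± 55.0 in Colon26, 111 ± 11.9 in LuM1 and 480 ± 48.2 in NM11 cells. LuM1 was the low line, and the gene was 4.91-fold lower in LuM1 cells relative to Colon26 cells and 4.31-fold lower than in NM11 cells. *Dhrs3*, *Rbp2* and *Rdh10* also carry the counts and were named after their values were seen. The retinal reductase *Dhrs3* was 2.22-fold higher in LuM1 cells relative to Colon26 cells and 2.40-fold higher than in NM11 cells. In NM11 against Colon26 cells *Rbp2* was 2.11-fold higher (1.51-fold under *Hprt* and 1.46-fold under normexp background correction), and *Rdh10*, the main retinol dehydrogenase of the embryo, was 3.29-fold lower.

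Of 12 genes that bind, sense, degrade or respond to retinoic acid, 11 had a named probe and 6 were measured on all arrays. *Crabp2* had no probe that could be named. In LuM1 against Colon26 cells 3 were at least 2-fold higher and 2 lower among 9 with a ratio or bound. Against NM11 cells 2 were higher and 2 lower among 8, and in NM11 against Colon26 cells 1 was higher and 2 lower among 9. The median log2 ratios of those measured on both arrays were 0.57, 0.33 and -0.36, beside -0.13, -0.11 and -0.02 over all measured genes. Under *Hprt* 3 were higher and 1 lower for LuM1 over NM11 cells, and 1 higher and 4 lower for NM11 over Colon26 cells.

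*Crabp1* holds retinoic acid in the cytosol. Its signal was 14560 ± 1456 in LuM1 cells, 199683 ± 19968 in NM11 cells and, not well above background, 24.6 ± 6.44 in Colon26 cells. It was at least 551-fold higher in LuM1 and at least 7561-fold higher in NM11 cells than in Colon26 cells, and 13.7-fold lower in LuM1 than in NM11 cells. A second probe gave at least 80.7-fold, at least 1348-fold and 16.7-fold, so the probes kept the direction and differed widely in the size of the bounds.

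*Cyp26b1* breaks retinoic acid down. Its signal was 97.0 ± 11.4 in Colon26 cells, 2304 ± 230 in LuM1 cells and 75.7 ± 8.73 in NM11 cells, which put LuM1 cells 23.8-fold above Colon26 and 30.4-fold above NM11 cells. The other retinoic acid hydroxylases did not share this: *Cyp26a1* was not well above background on any array, and *Cyp26c1* was so only on the Colon26 array (111 ± 15.8), at least 5.52-fold above LuM1 and at least 5.68-fold above NM11 cells. The *Cyp26c1* spot had 5 spots bright on the Colon26 array alone in its neighbourhood, short of the number counted as a cluster, and under normexp background correction its bounds shrank to a log2 ratio of -1.16 for LuM1 and -0.78 for NM11 over Colon26 cells, the latter under 2-fold.

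*Rarb*, a retinoic acid receptor that is itself a target of retinoic acid, was measured in Colon26 (325 ± 33.1) and NM11 cells (60.1 ± 7.33), while its LuM1 signal (4.47 ± 4.49) was not well above background. It was at least 16.2-fold lower in LuM1 and 5.41-fold lower in NM11 cells than in Colon26 cells. Its other 2 probes were measured in Colon26 cells alone and gave at least 3.32-fold and at least 2.96-fold lower levels in LuM1 cells. The probe behind the latter value (59.6 ± 8.53 in Colon26 cells) had 5 spots bright on the Colon26 array alone in its neighbourhood. That is short of the number counted as a cluster. The other receptors measured, *Rara*, *Rarg*, *Rxra* and *Rxrb*, stayed within 2-fold in all 3 comparisons. *Tgm2*, a transglutaminase induced by retinoic acid and named after its values were seen, was 2.41-fold higher in LuM1 cells relative to Colon26 cells and 3.98-fold higher than in NM11 cells.

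Of 14 other enzymes that act on aldehydes and ketones (aldo-keto reductases, carbonyl reductases, aldehyde oxidases and relatives), 8 were measured on all arrays. In LuM1 against Colon26 cells 2 were at least 2-fold higher and 2 lower among 10 with a ratio or bound. Against NM11 cells 0 were higher and 2 lower among 11. In NM11 against Colon26 cells 2 were higher and 1 lower among 12 well above background on at least 1 of the arrays. *Cyp2e1*, among these 12, had no ratio there. The median log2 ratios were 0.01, -0.19 and 0.10. For LuM1 over NM11 cells the counts became 1 higher and 0 lower under *Hprt*, and 0 and 0 under normexp background correction. *Cbr3*, a carbonyl reductase, was measured in Colon26 cells alone (436 ± 43.9), where it was at least 21.7-fold higher than in LuM1 cells and at least 22.3-fold higher than in NM11 cells. Named after their values were seen, the aldo-keto reductase *Akr1b10* was 3.22-fold and the aldehyde oxidase *Aox1* 2.49-fold higher in LuM1 cells relative to Colon26 cells. *Cbr2* was at least 3.88-fold lower in LuM1 cells relative to Colon26 cells and at least 2.92-fold lower than in NM11 cells. *Akr1b7* was measured in NM11 cells alone, at least 3.00-fold above LuM1 cells. Its NM11 signal was 2.24-fold its Colon26 signal, which was not well above background. *Aox1* was 2.95-fold higher in NM11 than in Colon26 cells.

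*Aldh3a1* is one of the classical targets of the aryl hydrocarbon receptor, and 8 other genes of that system were listed. Of these, 3 were measured on all arrays (*Ahr*, *Arnt* and *Tiparp*), and the inducible cytochromes *Cyp1a1*, *Cyp1a2* and *Cyp1b1* and the repressor *Ahrr* were not well above background on any. *Nqo1*, a quinone reductase, had a signal of 336 ± 34.1 in Colon26 cells and was not well above background in LuM1 (4.29 ± 4.31) or NM11 cells (7.87 ± 4.17). It was at least 16.7-fold lower in LuM1 and at least 17.2-fold lower in NM11 cells. *Nqo1* was measured by a single probe, as were *Adh7*, *Cyp26b1*, *Cyp26c1* and *Cbr3* above, so no second probe bears on these differences. The receptor gene *Ahr*, named after its values were seen, was 2.17-fold lower in LuM1 than in NM11 cells, but 1.92-fold lower without scaling, 1.63-fold with the authors' values and 1.44-fold under *Hprt*. None of the 8 genes was at least 2-fold higher in any comparison, and the median log2 ratios of the 3 measured genes were -0.44, -0.76 and 0.31. *Nqo1* was thus lower than in Colon26 cells in both sublines, and *Aldh3a1* at 2-fold in NM11 cells alone.

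**Figure D4:**
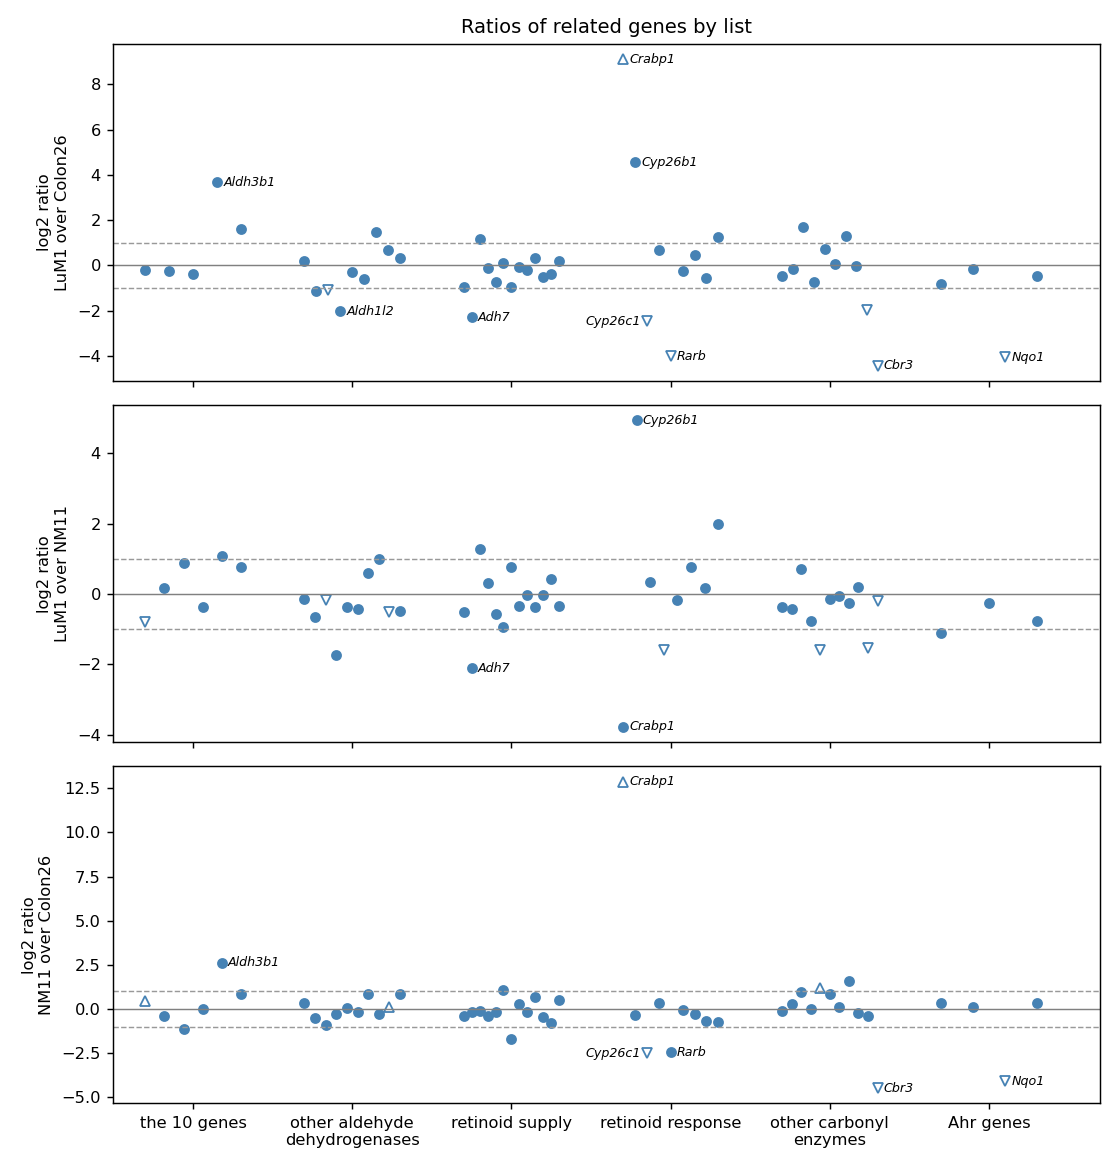
Log2 ratio of each gene with a ratio or bound, by list, for LuM1 over Colon26, LuM1 over NM11 and NM11 over Colon26 cells (filled points are measured ratios, open triangles are bounds that point away from 0, dashed lines mark 2-fold, and genes at 4-fold or more are named). The triangles of *Aldh1a1* for LuM1 over NM11 and of *Akr1b7* for NM11 over Colon26 cells are instead ratios to a signal not well above background. The 10 genes reach 4-fold through *Aldh3b1* alone, while *Crabp1* and *Cyp26b1* lie further out.

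The lines were checked against marker genes. Of 11 markers of colon epithelium, 4 were well above background in Colon26, 5 in LuM1 and 4 in NM11 cells, and *Cdh1*, *Vil1*, *Krt18*, *Krt19*, *Cdx1* and *Cdh17* were so in none. All 3 lines gave such a signal for *Cdx2*, *Krt20*, *Lgals4* and *Krt8*, and LuM1 cells alone for *Epcam*. The *Epcam* signal in LuM1 cells (28.0 ± 5.18) was near the detection limit, at least 1.06-fold above Colon26 and at least 1.43-fold above NM11 cells. The summed signal of the 11 was 1371 in Colon26, 544 in LuM1 and 476 in NM11 cells. In Colon26 and NM11 cells it rested mainly on *Cdx2* (443, 232 and 167 in Colon26, LuM1 and NM11 cells), *Krt20* (651, 54.5 and 157) and *Lgals4* (198, 71.7 and 68.2). *Krt8* ran the other way, at 28.9, 108 and 37.1, and was the second largest part of the sum in LuM1 cells, after *Cdx2*. All 7 mesenchymal markers, *Vim* among them, were well above background on all 3 arrays. Of the defining genes of colon epithelium, *Cdh1* and *Vil1* were thus not detected in lines labelled as colon adenocarcinoma, while *Cdx2* and *Krt20* were.

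Of 6 leukocyte markers, 3 were well above background in Colon26, 4 in LuM1 and 3 in NM11 cells, with summed signals of 5902, 12884 and 5250. *Ptprc* and *Adgre1* were not well above background on any array, while *Cd68* was 30.5-fold higher in LuM1 cells relative to Colon26 cells and *Lyz2* was measured in LuM1 cells alone. The other markers measured on all arrays changed less, *Itgam* with signals of 5027, 6818 and 4251 in Colon26, LuM1 and NM11 cells and *Csf1r* with 682, 691 and 675. The summed signal of the leukocyte markers, which rests mainly on *Itgam* and *Cd68*, was highest in LuM1 cells, as was the signal of *Aldh3b1*. In NM11 cells the sum was lower than in Colon26 cells, at 5250 against 5902. *Aldh3b1* was 6.11-fold and *Cd68* 1.74-fold higher in NM11 than in Colon26 cells. The part of such cells in the level of *Aldh3b1* was not tested. Of 4 endothelial markers *Pecam1* was well above background on all arrays, and *Cdh5*, *Kdr* and *Tek* were so on none. In RNA from whole cultures, fewer cells that express a gene and less of its RNA per cell cannot be told apart.

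The 3 leading genes kept their calls of LuM1 and NM11 over Colon26 cells under each of 11 other ways of processing the arrays. These covered scaling, background correction, detection rule, choice of probe and clustered spots. For *Aldh3b1* and *Aldh3a1* only scaling and background correction could move the ratio. Each has a single probe that passed detection in every line and lay in no cluster, so the other settings returned the same ratio by construction. For *Aldh7a1* the choice of probe could matter, and the mean over probes gave 3.13-fold for LuM1 over Colon26 cells. The ratio of *Aldh3b1* ran from 9.32-fold to 17.5-fold for LuM1 over Colon26 cells, from 2.04-fold to 3.15-fold for LuM1 over NM11 cells and from 4.35-fold to 6.25-fold for NM11 over Colon26 cells. That of *Aldh7a1* ran from 3.05-fold to 4.20-fold for LuM1 over Colon26 cells. The level of *Aldh3a1* was from 2.14-fold to 3.07-fold lower in NM11 than in Colon26 cells. For LuM1 over NM11 cells, *Aldh3a1* and *Aldh7a1* lay so near the line that the scaling decided their side of it, with highest values of 2.77-fold and 2.55-fold under scaling to *Hprt*.

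**Figure D5:**
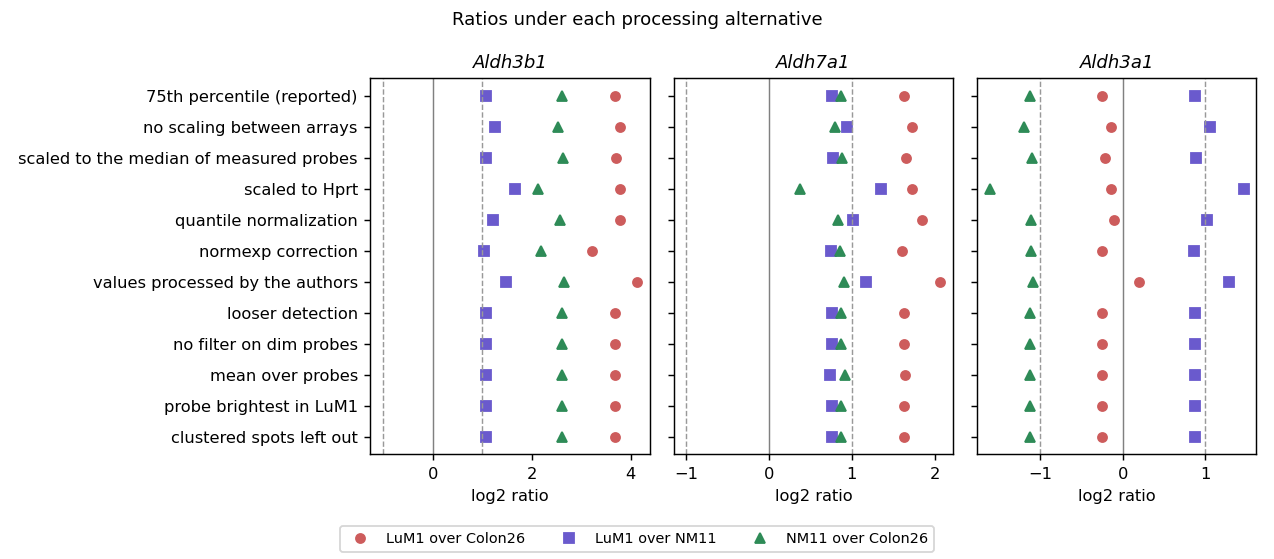
Log2 ratio of *Aldh3b1*, *Aldh7a1* and *Aldh3a1* for each pair of lines under the reported processing and 11 alternatives (dashed lines mark 2-fold). The points of *Aldh3b1* stay beyond the 2-fold line in every row, and those of *Aldh3a1* and *Aldh7a1* for LuM1 over NM11 cells cross it under some scalings. For *Aldh3b1* and *Aldh3a1* the rows for detection, choice of probe and clustered spots repeat the reported value by construction.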

How the data were processed

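Gene expression was measured in Colon26, LuM1 and NM11 cells with 1 single-colour array per line. A single slide and scan held all 3 arrays, per the file headers. The authors deposited spot intensity values from Agilent Feature Extraction 11.5.1.1, with background subtracted and spatial trends removed but arrays left unscaled against each other, with flags (score of 0 or 1) for outliers, saturation and detection. They also deposited processed intensity values, found here to be the scanner values multiplied by 0.654 for Colon26, 0.829 for LuM1 and 0.706 for NM11.

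Control and outlier spots (137, 74 and 99 on the 3 arrays) were left out, and repeated probes were averaged over their 10 spots, whose median SD was 0.035 to 0.040 on the log2 scale. Arrays were brought to a 75th percentile of 585.1, from 581.1, 625.1 and 551.5 as deposited. A gene took its probe with the highest mean log2 signal. Where a probe was not well above background on 1 array of a pair, the bound used whichever was larger there, its own signal or the lowest one well above background. No ratio was given where both were dim or the bound fell under 1. Probes were named through RefSeq accessions of GRCm38.p6 (32989, 58.3%). The design was built on mm9, so no gene coordinates are given.

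With 1 array per line no test was run, and precision is limited by the number of arrays. The computation of ratios and calls was checked on simulated signals. The genes and lists were chosen with earlier results of these data known. In the retinal supply list 1 gene is not reported here and enters none of its counts or medians. Named were all 10 genes with every probe, genes of the 5 related lists that differed at least 4-fold in any comparison, and the 5 genes most like the most variable of the 10.

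The alternatives were arrays left unscaled, scaling to *Hprt* or to the measured probes' median, quantile normalization, normexp correction with an offset of 50 on median brightness, the authors' values, a looser detection rule, no filter, the mean over probes, the probe brightest in LuM1 cells, a 4-fold threshold, and leaving out clustered spots. Software was limma 3.58.1 in R 4.3.3 for normexp and, for the rest, matplotlib 3.10.9, scipy 1.17.1, pandas 2.3.3 and numpy 2.4.6 in Python 3.11.15. Protein and probe sequences were not used here.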

Additional observations from a re-analysis of the deposited data

How the results depend on the processing

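For LuM1 over Colon26 cells the count of genes at least 2-fold higher or lower was 2, and it was 4 under looser detection and without a filter, where *Aldh1a3* and *Aldh1a2* entered, and 1 at a 4-fold threshold. For LuM1 over NM11 cells it was 1, and it was 2 without scaling, under looser detection and without a filter. It was 3 under scaling to *Hprt* and with the authors' values, and 0 at 4-fold. Under quantile normalization it was 4, where *Aldh1a1* reached 2.05-fold lower. For NM11 over Colon26 cells it was 2, and it was 3 under looser detection and without a filter, where *Aldh1a1* entered at 2.21-fold higher, and 1 at 4-fold. The other alternatives left each count within 1.5 times, and no called ratio changed sign. Among ratios under 2-fold, the sign turned for *Aldh2*, *Aldh3a1* and *Aldh3a2* under some scalings.

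Scaling moved the median log2 ratio of all genes by 0.45 (LuM1 over Colon26) and 0.41 (LuM1 over NM11) with the authors' values, by 0.59 (LuM1 over NM11), -0.49 (NM11 over Colon26) and 0.10 (LuM1 over Colon26) under *Hprt*, and by 0.11 and 0.18 for LuM1 over Colon26 and NM11 cells without scaling. Each of these multiplies all signals of an array by a constant, so ratios relative to that median keep their value. The share of calls that were higher over all genes was 52.5% for LuM1 over Colon26 cells (77.7% with the authors' values), 56.6% for LuM1 over NM11 cells (68.6% without scaling, 87.8% under *Hprt*, 81.4% with the authors' values) and 51.4% for NM11 over Colon26 cells (20.1% under *Hprt*). For LuM1 over Colon26 cells 1856 genes were higher and 1679 lower, against 3038 and 874 with the authors' values and 2582 and 2716 under looser detection. For LuM1 over NM11 cells 1599 and 1225 became 3581 and 498 under *Hprt*, 2748 and 629 with the authors' values, 1014 and 871 under normexp, and 2306 and 1843 under looser detection. For NM11 over Colon26 cells 1153 and 1092 became 686 and 2727 under *Hprt*, 808 and 635 under normexp, and 1810 and 2188 under looser detection. Without a filter the counts were those of looser detection, with 1 more gene higher (1811) for NM11 over Colon26 cells.

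Ratios of related genes measured on both arrays could not move under looser detection or without a filter. Of 35 calls of related genes, 25 held under all 9 alternatives run on them. The other 10 were lost under at least 1: those of *Aldh1l1*, *Aldh18a1*, *Rbp2* and *Ahr*, those of *Akr1b7* and *Cbr2* in both of their comparisons, that of *Rarb* for LuM1 over NM11 cells and that of *Cyp26c1* for NM11 over Colon26 cells. The normexp correction shrank large ratios and bounds of dim genes on the log2 scale. For LuM1 over Colon26 cells *Crabp1* went from 9.11 to 7.17, *Cyp26b1* from 4.57 to 3.65, *Cbr3* from -4.44 to -3.09, *Nqo1* from -4.06 to -2.62, *Rarb* from -4.01 to -2.53 and *Lyz2* from 2.08 to 1.04. For NM11 over Colon26 cells *Cbr3* went from -4.48 to -2.73 and *Nqo1* from -4.10 to -2.37, and for LuM1 over NM11 cells *Cyp26b1* from 4.93 to 3.79. No paired analysis was possible because each line has 1 array, and for the same reason no array could be left out. For the 4 genes without a ratio a difference among the lines was not detectable here. *Aldh1a1* gives a lower bound against Colon26 cells and, against LuM1 cells, a ratio to a signal not well above background.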
